A study of Mus musculus with 516 samples.

Results

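The microtubule motors measured here were the kinesins, the kinesin light chains, cytoplasmic dynein and dynactin. They were taken by gene symbol: Kif followed by a digit or c, Klc, Dync1 and Dync2, Dynl, and Dctn. This found 51 of the 11251 genes of the count table. By role, 34 of the 51 are transport motors (13 transport kinesins, 3 kinesin light chains, 12 subunits of cytoplasmic dynein-1 and 6 subunits of dynactin), 10 are mitotic kinesins, and 7 fit neither list. Kif17 and Kif18b, among others of the fixed lists, were not analysed here.

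The study sequenced 516 single cells from dorsal root ganglia of mice, which house the cell bodies of sensory neurons. Of these, 243 came from C57BL/6 and 273 from CAST/Ei mice, and 306 were naive and 210 cultured, 99 of the cultured cells being CAST/Ei. Both are wild-type inbred strains. Naive cells were captured after dissociation with no treatment. Cultured cells, called in vitro axotomy or injured by the study, were plated for 48 h, received the mitosis inhibitor ara-C at 24 h, and were lifted and captured in the same way. All cells were filtered, layered on Percoll and captured on a microfluidic chip, and each sequencing run held cells of every condition, per the labels. The labels give no age and name no animal, culture or capture chip, so each group stands as 1 sample, no group comparison carries a p-value, and animals, cultures and chips cannot be told apart from strain and treatment.

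Kinesins walk along microtubules, most of them towards the plus ends at the tip of the axon, and carry vesicles, mitochondria and other cargo away from the cell body. Cytoplasmic dynein moves towards the minus ends and carries cargo and injury or survival signals back, with dynactin as the complex that joins it to cargo and keeps it moving. A second group of kinesins builds and moves the mitotic spindle in dividing cells. Sensory neurons depend on the first set for axons that are very long, and as cells that no longer divide they have little use for a spindle.

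Reads per cell ran from 13932 to 2978345, with a median of 839147. By their marker lists, 240 naive cells were neuron-like, 84 of them C57BL/6 and the rest CAST/Ei, and so were 36 C57BL/6 and 60 CAST/Ei cultured cells. Neuron markers summed to 19643 and 19309 CPM (a gene's reads per 1000000 reads summed over the cells) in naive neuron-like cells of the C57BL/6 and CAST/Ei strains, and to 11575 and 13012 CPM in the cultured ones. The 15 satellite and Schwann glia markers summed to 2572 and 2689 CPM in the naive and 3767 and 3415 CPM in the cultured neuron-like cells, with no marker at 0. The cultured class came from other clusters than the naive class. Cluster 3 (25 C57BL/6 and 30 CAST/Ei cells, led by Serpinb1a, Nts, Sprr1a, Gal and Sox11) and cluster 5 (10 and 29 cells, led by Speg and Gmip) hold all but 2 of these cultured cells. Cultured cells also included 32 C57BL/6 and 26 CAST/Ei glia-like cells and 43 and 13 fibroblast-like cells. Unnamed were 34 naive cells of cluster 6, whose leading genes are endothelial and interferon-induced, and 32 C57BL/6 naive cells of cluster 8, whose neuron markers are high while the mural gene Rgs5 is among its leading genes.

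Transport motors took 1.25% of all reads in C57BL/6 naive and 1.27% in CAST/Ei naive neuron-like cells, and 0.976% and 0.951% in the cultured ones. Mitotic kinesins took a larger share after culture. Their summed level was 26.9 CPM in C57BL/6 naive and 404.7 CPM in C57BL/6 cultured cells, and 34.2 and 293 CPM in CAST/Ei. The measure of difference was the log2 of (cultured pooled CPM + 1) over (naive pooled CPM + 1), and a gene counted as different from 2-fold on. Below, paired values give naive before cultured cells, and paired ratios give C57BL/6 before CAST/Ei. Of the 34 transport motors, 3 were higher by 2-fold or more and 7 lower by as much in cultured C57BL/6 cells, where 21% of all genes were higher and 23% lower by that measure. In CAST/Ei 0 of 34 were higher and 11 lower, against 22.8% and 23% of all genes. The counts of lower transport motors therefore lie near those of all genes in C57BL/6 and somewhat above in CAST/Ei, and the median ratio was -0.19 and -0.43, against -0.12 and -0.01 over all genes. All 10 mitotic kinesins were at least 2-fold higher in both strains, with medians of 3.49 and 3.01. With a pseudocount of 10 CPM 5 of the 10 were in CAST/Ei, as were 1760 of all 11251 genes. Without the 25% of neuron-like cells with the highest glial markers 5 were higher and 1 lower in C57BL/6. Of all genes 2122 were then higher and 4937 lower.

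**Figure D1:**
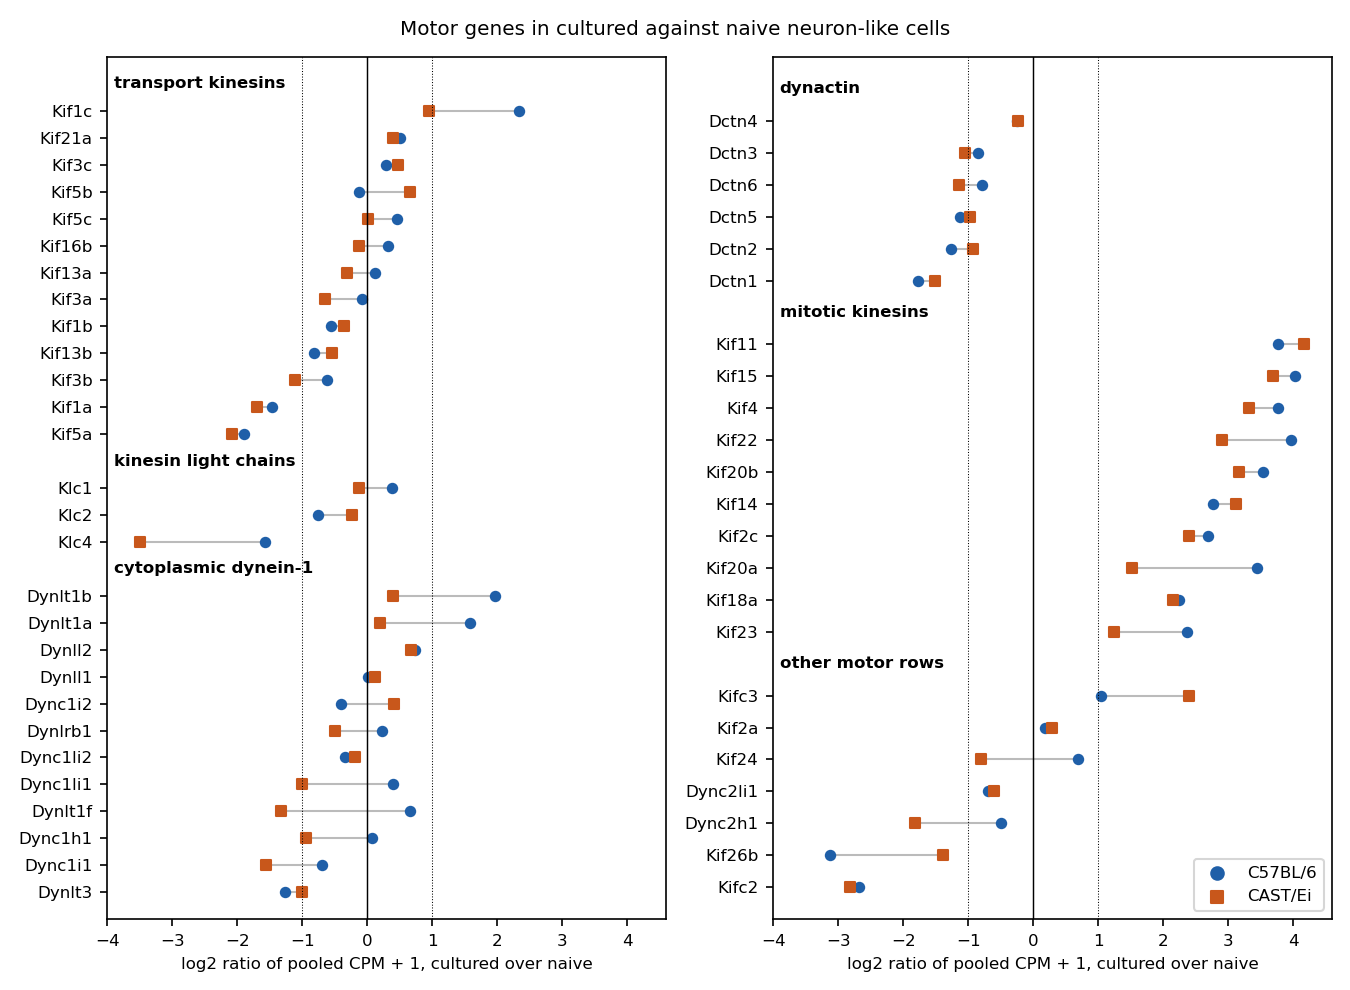
The log2 ratio of pooled CPM + 1, cultured over naive neuron-like cells, is on the horizontal axis for each of the 51 motor genes, grouped by role, with circles for C57BL/6, squares for CAST/Ei and dotted lines at 2-fold. All 10 mitotic kinesins lie right of the 2-fold line in both strains, while all 6 dynactin subunits lie left of 0.

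RefSeq start sites (build GRCm38.p6) were matched by symbol for 37 of the 51 motors, in 43 promoters of 300 bases (250 before and 50 after the start). Because all mitotic kinesins were higher in cultured cells, these were searched on both strands for a pair of motifs known from cell cycle promoters. The first is the cell cycle genes homology region, or CHR, as TTTGAA, and the second is the CCAAT box, as CCAAT. Neither motif contains the other. CHR was found in 8 of 9 mitotic promoters, in 2 of 29 transport promoters and in 17.9% of all 32851 promoters of the table. CCAAT was found in 5 of 9, in 10 of 29 and in 37.4% of all. Both motifs occurred together in 5 of 9 mitotic, 0 of 29 transport and 6.95% of all promoters. The stretches below run from 120 bases before to 30 bases after the start of 5 mitotic kinesins, of Kif26b, which holds both motifs and was lower in culture, and of a pair of transport motors that were lower in culture. Capitals mark both motifs on either strand.
Kif11 (chr19:37376262-37376411, plus strand): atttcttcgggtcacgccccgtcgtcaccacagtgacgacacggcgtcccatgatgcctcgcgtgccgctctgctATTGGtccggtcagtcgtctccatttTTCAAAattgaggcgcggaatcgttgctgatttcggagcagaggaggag
Kif15 (chr9:122950961-122951110, plus strand): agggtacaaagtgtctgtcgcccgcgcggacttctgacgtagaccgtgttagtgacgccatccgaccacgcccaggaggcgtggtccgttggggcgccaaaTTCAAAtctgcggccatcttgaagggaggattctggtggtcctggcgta
Kif22 (chr7:127042391-127042540, minus strand): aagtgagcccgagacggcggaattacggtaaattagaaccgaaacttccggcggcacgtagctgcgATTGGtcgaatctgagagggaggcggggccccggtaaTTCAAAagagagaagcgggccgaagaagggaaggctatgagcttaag
Kif23 (chr9:61946770-61946919, minus strand): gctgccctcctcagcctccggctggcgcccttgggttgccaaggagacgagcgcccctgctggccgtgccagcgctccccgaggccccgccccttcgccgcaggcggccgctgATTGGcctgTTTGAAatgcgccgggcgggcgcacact
Kif4 (chrX:100625945-100626094, plus strand): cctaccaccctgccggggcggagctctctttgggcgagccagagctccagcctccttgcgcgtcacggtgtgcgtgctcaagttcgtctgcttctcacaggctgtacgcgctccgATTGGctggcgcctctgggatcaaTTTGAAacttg
Kif26b (chr1:178529005-178529154, plus strand): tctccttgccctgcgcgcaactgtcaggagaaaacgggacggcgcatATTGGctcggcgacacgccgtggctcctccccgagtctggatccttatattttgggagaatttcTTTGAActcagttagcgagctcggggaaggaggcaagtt
Klc4 (chr17:46646051-46646200, minus strand): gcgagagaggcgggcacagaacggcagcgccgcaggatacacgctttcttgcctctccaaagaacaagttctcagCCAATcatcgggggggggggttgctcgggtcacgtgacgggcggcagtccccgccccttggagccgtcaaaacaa
Kif1a (chr1:93101845-93101994, minus strand): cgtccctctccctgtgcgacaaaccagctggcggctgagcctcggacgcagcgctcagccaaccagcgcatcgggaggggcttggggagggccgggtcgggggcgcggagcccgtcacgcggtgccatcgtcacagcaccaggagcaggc
In Kif11, CHR (as TTCAAA) begins 19 bases before the start and CCAAT (as ATTGG) 45 bases before it. Kif15 holds CHR 19 bases before the start and Kif22 holds it 17 bases before. In Kif23 and Kif4 the match lies just inside the transcript, 3 and 20 bases after the start. Within 25 bases of the start 6 of the 9 mitotic genes held CHR, while Kif14 and Kif2c, not printed, held it farther upstream, in Kif14 228 bases before. Of the transport genes 0 held CHR in that window. The share of all promoters was not computed for the window, and the 17.9% above covers all 300 bases. Kif18a was the mitotic kinesin with neither motif in its promoter. By GENCODE gene coordinates (GRCm38) the promoters used for Kif14, Kif2c and Kif4 lie wholly inside the gene. Kif14 begins at chr1:136466343 (plus strand) and its promoter at 136467598. Kif2c begins at chr4:117182639 (minus strand) and its promoter at 117179022. Kif4 begins at chrX:100625737 (plus strand) and its promoter at 100625815. Motifs at the outer GENCODE starts of these genes were not searched. Kif26b has CHR 9 bases before the start, so the pair of motifs did not mark only genes that were higher. The Kif1a stretch is that of the outer of its 2 listed starts and holds neither motif, while the inner one holds CHR 44 bases before the start. A match is a run of letters, and binding was not measured.

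Kif5a, the neuronal heavy chain of kinesin-1, which carries neurofilaments and other slow and fast cargo, showed the most negative ratio of the transport kinesins. The gene lies on the minus strand at chr10:127225696-127263348 (GRCm38), next to Dctn2 at chr10:127266368-127281950 on the plus strand. Pooled levels were 1083 CPM (95% Poisson interval 1075 to 1091, counting error only, here and below) in C57BL/6 naive, 291 CPM (283 to 299) in C57BL/6 cultured, 1133 CPM (1128 to 1139) in CAST/Ei naive and 267 CPM (263 to 271) in CAST/Ei cultured neuron-like cells. Single C57BL/6 cells ran from 90.1 to 2586 CPM with a median of 994 when naive, and from 4.03 to 917 with a median of 295 when cultured. In CAST/Ei the range was 160.1 to 2722 (median 1077) against 0.422 to 942 (median 223). None of the 36 and none of the 60 cultured cells reached the naive median of its strain, although the ranges overlap. The log2 ratios were -1.89 and -2.08, and both stayed past 2-fold under the 13 settings tried, of which the filter on low values and the clusters made with all genes left its cells and value as they were.

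Its paralog Kif5b, the heavy chain found in most cell types, did not share this. It stood at 805 CPM (798 to 812) and 735 CPM (722 to 747) in naive and cultured C57BL/6 cells and at 1049 (1044 to 1054) and 1651 (1641 to 1662) in CAST/Ei, ratios of -0.13 and 0.65. Kif5b in single cells ran from 43.2 to 2515 CPM (median 694) and from 104.1 to 2067 (median 662) in naive and cultured C57BL/6, and from 99.1 to 2354 (median 969) and 85.4 to 6505 (median 944) in CAST/Ei. The medians of naive and cultured cells lie close together in both strains, and 5 cultured CAST/Ei cells exceeded every naive one. Kif5c, another neuronal heavy chain, had ratios of 0.46 and 0.02. Taken per kb of exon, Kif5a made up 55.1% of Kif5 transcripts in C57BL/6 naive cells, 24.7% in C57BL/6 cultured, 45.97% in CAST/Ei naive and 12.5% in CAST/Ei cultured, while Kif5b went from 35.9% to 54.7% and from 37.3% to 67.8%. The share per cell gave medians for Kif5a of 51.9% and 24.5% in C57BL/6 cells, and of 45.7% and 16.1% in those of CAST/Ei. Kif5a was a small part of the family in cultured glia-like cells (2.09% in C57BL/6 and 6.15% in CAST/Ei) and fibroblast-like cells (2.40% and 3.46%), where Kif5b held 84.7% to 95.3%. How far glial transcripts in the cultured neuron-like cells enter the Kif5 shares was not tested.

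**Figure D2:**
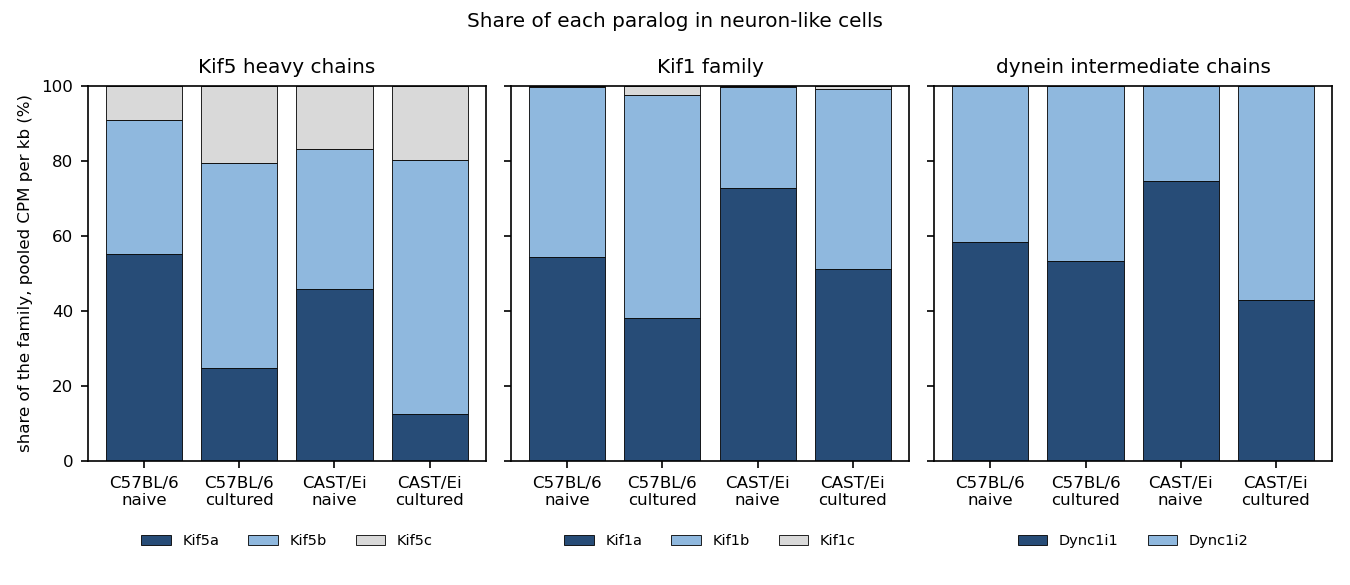
Bars give the share of each paralog within its family in neuron-like cells of the 4 groups, from pooled CPM per kb of exon, in percent. The Kif5a share lies below that of Kif5b in both cultured groups, and the Dync1i1 share of dynein intermediate chains is 58.4% and 53.4% in the C57BL/6 groups, and 74.8% and 42.9% in those of CAST/Ei.

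Kif1a, the kinesin-3 motor of synaptic vesicle precursors and dense core vesicles, was 993 CPM (985 to 1000.4) and 359 CPM (350.1 to 368) in naive and cultured C57BL/6 cells and 1088 (1083 to 1093) and 336 (332 to 341) in CAST/Ei. Cells ran from 246 to 2963 CPM (median 768) and from 2.06 to 3045 (median 328) in C57BL/6, and from 295 to 4259 (median 1028) and 0 to 2109.6 (median 285) in CAST/Ei. In each strain 6 cultured cells lay above the naive median, so the ranges overlap widely. The ratios were -1.47 and -1.69. With the mean of single-cell CPM in place of summed reads the C57BL/6 ratio was -0.95, short of 2-fold. Kif1b, which also carries synaptic vesicle precursors and mitochondria, had ratios of -0.56 and -0.36, and the Kif1a share of Kif1 transcripts per kb went from 54.5% to 38.2% and from 72.7% to 51.1%. Kif1c, a more widely expressed relative, was low throughout, at 2.51 CPM (2.14 to 2.92) and 16.7 CPM (14.9 to 18.7) in C57BL/6 and 1.62 (1.43 to 1.83) and 4.08 (3.59 to 4.61) in CAST/Ei, ratios of 2.33 and 0.95. Most naive cells held no Kif1c read (65 of 84 in C57BL/6 and 120 in CAST/Ei), cultured cells had medians of 1.76 and 0 CPM, and the highest cells were 74.9 and 232 CPM in C57BL/6 and 34.9 and 291 in CAST/Ei. The C57BL/6 value for Kif1c reversed to -0.73 without the 25% of neuron-like cells with the highest glial markers. The median of all genes was -0.76 there.

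Among the other transport kinesins, Kif3b, part of the heterotrimeric kinesin-2 motor, was 66.4 (64.4 to 68.4) and 42.8 CPM (39.8 to 45.9) in C57BL/6 and 91.5 (90.04 to 93.02) and 41.8 CPM (40.2 to 43.5) in CAST/Ei, ratios of -0.62 and -1.11. Its cells ran from 0 to 200.4 CPM (median 58.7) and 0 to 173.8 (43.4) in C57BL/6, and from 4.76 to 272 (78.5) and 0 to 191.6 (36.5) in CAST/Ei. Kif13b, a kinesin-3 motor that carries signalling proteins, was 41.7 (40.1 to 43.2) and 23.2 CPM (21.04 to 25.5) in C57BL/6 and 44.1 (43.1 to 45.1) and 30.03 (28.7 to 31.4) in CAST/Ei, but its C57BL/6 cells had near-equal medians of 21.98 (0 to 256) and 22.4 CPM (0 to 363), against 35.01 (0 to 171.5) and 26.01 (0 to 469) in CAST/Ei. Neither gene separated naive from cultured cells. Kif3a, Kif3c, Kif13a, Kif16b, Kif21a, Kif5b and Kif5c stayed within 2-fold in both strains, with ratios between -0.65 and 0.65. The clusters differed here. Kif3a, the partner of Kif3b, gave -1.19 and -1.21 with the cultured cells of cluster 3 alone and 0.79 and -0.47 with those of cluster 5 alone, whereas Kif3b gave 0.03 and -0.28 with cluster 3 and -3.12 and -2.10 with cluster 5. Kif13b gave -0.28 and 0.19 with cluster 3 and -2.46 and -1.43 with cluster 5. In the 10 C57BL/6 cells of cluster 5 Kif13a gave -4.54, Kif21a 1.24 and Kif16b 1.03. The median of all genes was -0.05 and -0.06 with cluster 3, and -1.14 and -0.15 with cluster 5, so the low values include a shift of genes in general.

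**Figure D3:**
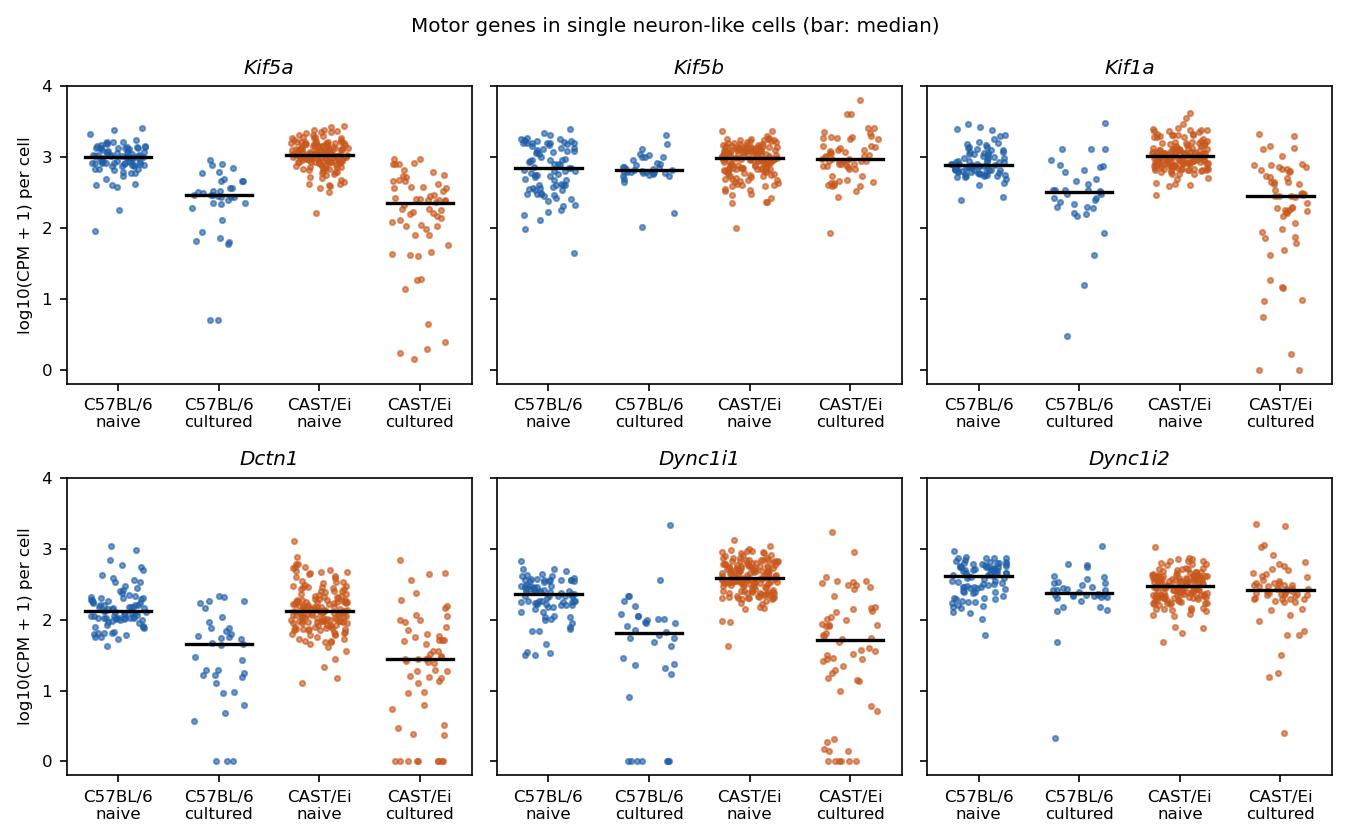
Each point is 1 neuron-like cell, with log10(CPM + 1) on the vertical axis for 6 motor genes in the 4 groups, and bars at the medians. The Kif5a median lies lower in cultured cells, at 295 against 994 CPM in C57BL/6 and 223 against 1077 in CAST/Ei, whereas the Kif5b medians are near-equal within each strain.

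Kinesin light chains join kinesin-1 heavy chains to cargo. Klc1, the main one here, was 598 (593 to 604) and 783 CPM (770.1 to 796) in C57BL/6 and 565 (562 to 569) and 517 CPM (512 to 523) in CAST/Ei, ratios of 0.39 and -0.13. The cells gave lower medians after culture in both strains, 552 (138.5 to 2388) and 408 CPM (45.3 to 4099) in C57BL/6 and 551 (208 to 2055) and 361 (0 to 2752) in CAST/Ei, so that pooled level and median differ in direction in C57BL/6. Klc4 was 24.9 (23.7 to 26.1) and 7.68 CPM (6.46 to 9.07) in C57BL/6 and 25.99 (25.2 to 26.8) and 1.39 CPM (1.11 to 1.72) in CAST/Ei, ratios of -1.58 and -3.50. Its naive cells ran from 0 to 195 CPM (median 10.3) and from 0 to 517 (median 7.94), and its cultured cells from 0 to 74.3 and from 0 to 31.5, both with a median of 0. No Klc4 read was found in 22 of 36 and 46 of 60 cultured cells, against 16 of 84 C57BL/6 and 44 CAST/Ei naive cells. Klc2 had ratios of -0.75 and -0.23.

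In cytoplasmic dynein-1, 2 of 12 subunits were at least 2-fold higher and 1 lower in C57BL/6, and 0 were higher and 4 lower in CAST/Ei. Over all genes 21% and 23% were so in C57BL/6, and 22.8% and 23% were in CAST/Ei, so the share of lower subunits in CAST/Ei is somewhat above that of all genes and the other shares are near or below. The heavy chain Dync1h1, the ATPase itself, had ratios of 0.08 and -0.93, with 420 and 445 CPM in C57BL/6 and 499 and 261 CPM in CAST/Ei. Dync1i1, the intermediate chain made mostly in neurons, was 248 (244 to 252) and 152.5 CPM (146.9 to 158.3) in C57BL/6 and 442 (438 to 445) and 149.3 CPM (146.2 to 152.3) in CAST/Ei, ratios of -0.70 and -1.56. Its C57BL/6 cells ran from 30.4 to 662 CPM (median 227) when naive and from 0 to 2156 (median 62.9) when cultured, and its CAST/Ei cells from 42.1 to 1340.2 (389) and from 0 to 1712 (50.5). Only 2 of 36 and 3 of 60 cultured cells lay above the naive median, and 1 in each strain lay above every naive cell. The ratio of C57BL/6 Dync1i1 was -1.82 with the cultured cells of cluster 3 alone and 0.19 with those of cluster 5 alone. The median of all genes was -0.05 and -1.14 in these. Dync1i2, the intermediate chain of most cell types, had ratios of -0.41 and 0.41, and per kb the pooled Dync1i1 share of both chains was 58.4% and 53.4% in C57BL/6 cells, and 74.8% and 42.9% in those of CAST/Ei. The share per cell had medians of 55.5% and 33.7% in C57BL/6 and of 75.8% and 33.4% in CAST/Ei, so that the C57BL/6 pooled share hardly differs while the median does.

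Of the light chains, Dynlt3 had the highest level. It was 1139.8 (1132 to 1148) and 475 CPM (465 to 485) in C57BL/6 and 1272 (1267 to 1278) and 634 CPM (627 to 639.9) in CAST/Ei, ratios of -1.26 and -1.004. The CAST/Ei ratio missed 2-fold under 5 of the 13 settings. Dynlt3 cells ran from 21.9 to 2828 CPM (median 1098) and 4.85 to 1679 (519) in C57BL/6, and from 105.97 to 4257 (1147) and 5.08 to 1821 (612) in CAST/Ei. Just 1 of 36 and 4 of 60 cultured cells exceeded the naive median. Dynlt1a and Dynlt1b are near-identical copies, together with Dynlt1f, so how their reads were divided is uncertain, and Dynlt1a also shares 13.6% of its exon bases with Tmem181a on the other strand. Dynlt1a was 12.6 (11.7 to 13.4) and 39.7 CPM (36.8 to 42.7) in C57BL/6 and 20.4 (19.7 to 21.1) and 23.7 (22.5 to 24.9) in CAST/Ei, ratios of 1.59 and 0.20. Dynlt1b was 20.4 (19.4 to 21.5) and 83.2 CPM (79.1 to 87.5) in C57BL/6 and 33.9 (32.99 to 34.8) and 44.98 (43.3 to 46.7) in CAST/Ei, ratios of 1.97 and 0.40. Both copies were thus higher in cultured C57BL/6 cells. For Dynlt1a the cells ran from 0 to 32.1 CPM (median 10.5) and 0 to 107.3 (41.02) in C57BL/6 and from 0 to 59.8 (19.3) and 0 to 100.5 (33.5) in CAST/Ei. For Dynlt1b they ran from 0 to 71.98 (15.9) and 0 to 289.7 (60.04), and from 0 to 95.2 (34.4) and 0 to 151.3 (56.4). In C57BL/6, 21 of 36 cultured cells exceeded every naive cell for Dynlt1a and 14 did for Dynlt1b. Dynlt1a and Dynlt1b were also higher in C57BL/6 glia-like cells, at 84.99 and 147.7 CPM, and their part in these values was not tested. Dynll2, a light chain also used by myosin V, was 52.3 (50.5 to 54.02) and 88.2 CPM (83.9 to 92.6) in C57BL/6 and 33.8 (32.9 to 34.8) and 54.5 (52.7 to 56.4) in CAST/Ei, ratios of 0.74 and 0.67. Its cells had lower medians after culture, 52.02 (0 to 175) and 41.8 CPM (0 to 356) in C57BL/6 and 32.5 (0 to 142.8) and 27.3 (0 to 201) in CAST/Ei. Dync1li1 was 239, 317, 517 and 258 CPM in C57BL/6 naive, C57BL/6 cultured, CAST/Ei naive and CAST/Ei cultured cells, and its CAST/Ei ratio of -1.0004 missed 2-fold under 6 of the 13 settings. Dync1li2, Dynll1 and Dynlrb1 stayed within 2-fold in both strains.

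All 6 dynactin subunits had negative ratios in both strains, and 3 in each were at least 2-fold lower, against 23% of all genes in both. Medians over the 6 were -0.99 and -1.01, against -0.12 and -0.01 over all genes, where negative ratios were thus common too. Dctn1 (chr6:83165920-83200117, plus strand, GRCm38), the p150 subunit that binds microtubules and dynein, was 197 (193 to 200.1) and 56.8 CPM (53.4 to 60.4) in C57BL/6 and 145.2 (143.4 to 147.1) and 50.2 CPM (48.5 to 52.001) in CAST/Ei, ratios of -1.77 and -1.51. Dctn1 cells ran from 41.02 to 1083 CPM (median 129.3) and 0 to 215 (44.1) in C57BL/6, and from 11.9 to 1267 (130.6) and 0 to 684 (26.8) in CAST/Ei. Cultured cells above the naive median numbered 6 of 36 and 8 of 60, and both ratios stayed past 2-fold in every setting tried. Dctn2, the dynamitin subunit of the shoulder, was 322 (318 to 326) and 133.2 CPM (127.9 to 138.6) in C57BL/6 and 349.9 (347 to 353) and 183 (179.7 to 186) in CAST/Ei, ratios of -1.27 and -0.93. Its cells ran from 20.6 to 1226 CPM (median 273) and 0 to 535 (143.3), and from 78.96 to 1061 (311) and 0 to 1257 (105.3).

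Dctn5 and Dctn6 sit at the pointed end of the dynactin filament, as does Dctn4. Dctn5 was 259 (255 to 263) and 117.8 CPM (112.9 to 122.95) in C57BL/6 and 327 (324 to 329.8) and 165.9 (162.8 to 169.2) in CAST/Ei, ratios of -1.13 and -0.97, with cells from 7.29 to 556 CPM (median 245) and 1.14 to 406 (150.04), and from 7.42 to 713 (336) and 0 to 909 (131.14). Dctn5 cells thus had lower medians after culture in both strains, with overlapping ranges. Dctn6 was 158.4 (155.4 to 161.4) and 91.4 CPM (87.03 to 95.9), and 169.6 (167.6 to 171.6) and 76.7 (74.5 to 78.9), ratios of -0.79 and -1.13. Dctn6 cells ran from 0 to 587 CPM (median 148.1) and 0 to 397 (103.8) in C57BL/6, and from 42.3 to 503 (159.8) and 0 to 598 (57.7) in CAST/Ei. Its cells overlapped as well, and its CAST/Ei median was the lower of the cultured pair. Dctn3, the smallest shoulder subunit, was 177 (174.17 to 181) and 98.2 CPM (93.7 to 102.8), and 179 (177 to 181) and 86.6 (84.3 to 88.99), ratios of -0.85 and -1.04, with cells from 0 to 494 CPM (median 163.8) and 0 to 419.9 (82.9), and from 2.72 to 490.3 (174.44) and 0 to 559 (59.4). Dctn4 moved least. It was 681 (675 to 688) and 575 CPM (564 to 586) in C57BL/6 and 649 (645 to 653) and 554 (548 to 559.7) in CAST/Ei, ratios of -0.24 and -0.23, and its cells ran from 116.7 to 1379 CPM (median 636) and 1.01 to 1772 (428), and from 138.3 to 1497 (582) and 37.99 to 1568 (488). In C57BL/6, Dctn2 and Dctn5 missed 2-fold with the mean of single-cell CPM, cells thinned to 200000 reads, or cultured cells of cluster 3 alone. Dctn5 missed it also with all cells of any class. In CAST/Ei, Dctn3 missed it with a pseudocount of 10 CPM or cluster 3 alone, while Dctn6 held under all 13 settings. All 6 subunits were within 2-fold of the neuron-like level in glia-like cells of both strains.

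Mitotic kinesins were low in naive neuron-like cells and higher in many cultured ones. Kif22, a chromokinesin that pushes chromosome arms, had the highest level of the 10 and lies at chr7:127027729-127042471 on the minus strand (GRCm38). Kif22 was 10.4 (9.65 to 11.2) and 178 CPM (171.4 to 184) in C57BL/6 and 14.7 (14.1 to 15.3) and 116.4 CPM (113.7 to 119.1) in CAST/Ei. Its naive cells ran from 0 to 71.6 CPM (median 2.07) and 0 to 180.2 (7.34), and its cultured cells from 0 to 634 (108.9) and 0 to 701 (75.5). In C57BL/6, 27 of 36 cultured cells exceeded every naive cell, and in CAST/Ei 12 of 60 did. The ratios were 3.97 and 2.91, and both stayed past 2-fold in every setting tried, with 4.43 and 3.21 in the cultured cells of cluster 5 alone and 3.66 and 2.26 in those of cluster 3 alone.

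Kif11, the spindle motor also called Eg5, was 1.597 CPM (1.31 to 1.93) and 34.3 CPM (31.7 to 37.1) in C57BL/6 and 0.459 (0.360 to 0.577) and 25.2 CPM (23.95 to 26.5) in CAST/Ei, ratios of 3.77 and 4.17. Its cells ran from 0 to 23.02 CPM (median 0) and 0 to 186 (27.8) in C57BL/6, and from 0 to 40.1 (0) and 0 to 235 (2.74) in CAST/Ei. Kif15, a second plus-end spindle motor, was 1.52 (1.24 to 1.85) and 40.3 CPM (37.4 to 43.3), and 0.490 (0.387 to 0.612) and 18.2 (17.2 to 19.3), ratios of 4.03 and 3.69. For Kif15 the naive cells reached 36.2 and 13.1 CPM with medians of 0, and the cultured cells reached 123.1 and 311 with medians of 34.3 and 1.06. Both spindle motors thus had a far higher median in cultured C57BL/6 than in cultured CAST/Ei cells. Kif20b, which acts in the completion of cell division, was 3.73 (3.28 to 4.22) and 54.1 CPM (50.8 to 57.6), and 6.58 (6.19 to 6.99) and 67.2 (65.2 to 69.3), ratios of 3.54 and 3.17. The highest Kif20b cells were 39.5 and 333 CPM in C57BL/6 (medians 0 and 32.2) and 114.9 and 1441 CPM in CAST/Ei (medians 0 and 1.09), so that the cultured CAST/Ei median lies far below the pooled level. Kif4, a chromokinesin, had 2 reads in all C57BL/6 naive neuron-like cells together (0.0299 CPM) and 237 reads, 13.1 CPM (11.5 to 14.9), in the cultured ones, a ratio of CPM of 439 (120.1 to 3643), and 0.0314 (0.0102 to 0.0733) and 9.30 CPM (8.56 to 10.1) in CAST/Ei. The highest Kif4 cells were 0.765 and 64.4 CPM in C57BL/6 and 13.1 and 170.7 in CAST/Ei, with medians of 0 and 2.35, and of 0 and 0.981. Kif14, Kif18a, Kif20a, Kif23 and Kif2c had ratios from 2.25 to 3.44 in C57BL/6 and from 1.25 to 3.12 in CAST/Ei. Kif20a shares 29.3% of its exon bases with Cdc23 and Kif4 15.1% with Pdzd11, each on the other strand, and the strand used in counting is not known.

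Each cell was also thinned to 200000 reads, and a kinesin counted as detected with at least 5 of them. Intervals and upper limits on these shares cover the drawing of cells within 1 sample only, not animals or cultures, and concern cells with 5 reads at this depth, not all cells that express the gene. Kif22 was detected in 14.1% of C57BL/6 naive (95% Clopper-Pearson interval 7.26% to 23.8%, 78 cells), 89.3% of C57BL/6 cultured (71.8% to 97.7%, 28 cells), 23.6% of CAST/Ei naive (17.1% to 31.3%) and 79.6% of CAST/Ei cultured neuron-like cells (66.5% to 89.4%, 54 cells). Without thinning, the shares were 32.1%, 88.9%, 55.8% and 90%. Kif11 was detected in 1.28%, 60.7%, 0% and 29.6% of the same thinned cells, and its 0 cells in CAST/Ei naive allow a share of up to 2.46%, although 26 of these neuron-like cells held a Kif11 read before thinning. In C57BL/6 cultured cells the Kif11 share was 10% without the 25% of highest glial markers, over 10 cells. No naive neuron-like cell had 5 or more of the 10 kinesins (0 of 78 in C57BL/6, which allows up to 4.62%, and 0 in CAST/Ei, which allows up to 2.46%), while 15 of 28 C57BL/6 cultured (53.6%, 33.9% to 72.5%) and 11 of 54 CAST/Ei cultured cells (20.4%, 10.6% to 33.5%) did. The share was 80% and 41.7% in glia-like cells and 71.8% and 83.3% in fibroblast-like cells of the C57BL/6 and CAST/Ei cultures.

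**Figure D4:**
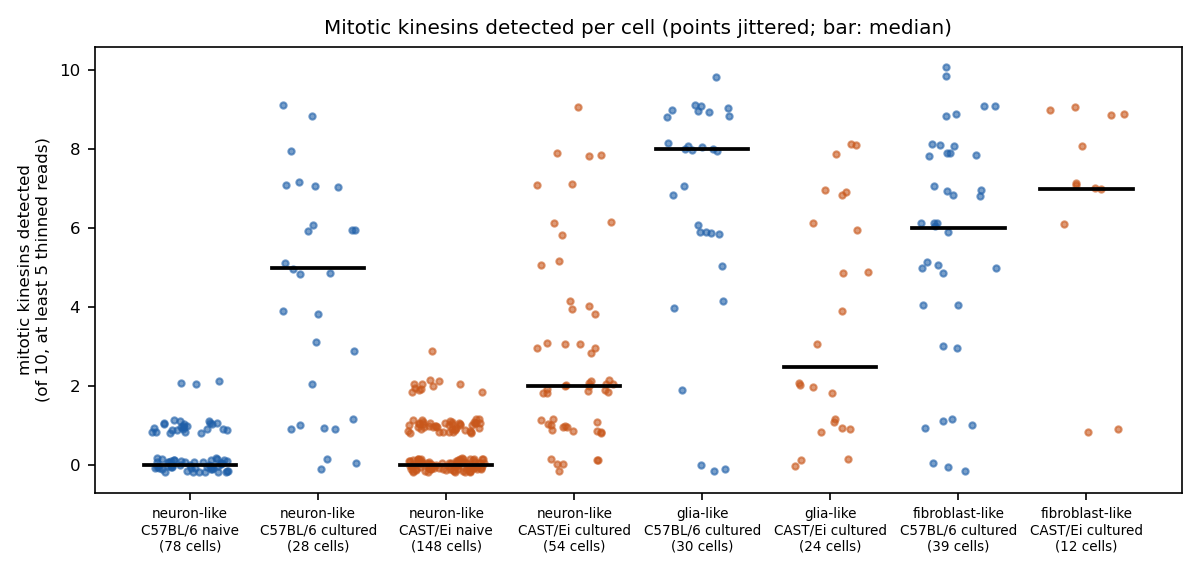
Each point is 1 cell thinned to 200000 reads, with the number of the 10 mitotic kinesins detected on the vertical axis, by class and group, and bars at the medians. The medians are 0 in both naive neuron-like groups, 5 and 2 in the cultured neuron-like groups, and 8 in C57BL/6 glia-like cells.

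All 26 neuron-like cells with 5 or more mitotic kinesins were in cluster 3, and none of the 25 thinned CAST/Ei cells of cluster 5 was. Glial markers moved with this count. Cells with 5 or more had a median over cells of the mean log2(CPM + 1) of the glia markers of 6.40 in C57BL/6 and 5.67 in CAST/Ei, whereas the 3 C57BL/6 and 6 CAST/Ei cultured cells with none had 2.61 and 3.35, and glia-like cells had 7.39 and 7.15. Their neuron markers stood at 7.30 and 7.52, against 6.599 and 6.54 in cultured cells with none and 4.15 and 4.58 in glia-like cells. The cells of cluster 5 also had fewer genes, with a median of 4649 in CAST/Ei against 9034 in cluster 3. Doublets, glial RNA and expression in the neurons themselves cannot be told apart here, and no doublet caller was run. The mean log2(CPM + 1) of the glia markers was 5.77 in cluster 3 and 3.33 in cluster 5. Leaving out the 25% of neuron-like cells with the highest glial markers kept 13 C57BL/6 and 32 CAST/Ei cultured cells. Cluster 5 held 10 and 29, so this setting and cluster 5 alone may share most of their cultured cells, which was not counted. They are not separate checks. The C57BL/6 mitotic kinesins at least 2-fold higher then numbered 5, with 1 lower, and Kif11 gave 0.67 and 4.22 in C57BL/6 and CAST/Ei. Kif22 gave 4.37 and 3.16, and Kif15 gave 2.20 and 1.75. Kif18a, Kif20b and Kif23 turned to -1.04, -0.20 and -0.52 in C57BL/6, where the median of all genes was -0.76.

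Set against neuron-like cells of the same culture, glia-like cells had 9 of 10 mitotic kinesins at least 2-fold higher in both strains, where 27.1% of all genes were higher in C57BL/6 and 23% in CAST/Ei. Kif22 was the exception. It was 84.4 CPM (81.2 to 87.8) in C57BL/6 glia-like and 58.5 CPM (56.4 to 60.7) in C57BL/6 fibroblast-like cells, below the 178 CPM of neuron-like cells, and 95.6 (92.4 to 98.8) and 71.1 CPM (66.97 to 75.3) in CAST/Ei, below 116.4 CPM. Of the 34 transport motors, 3 were at least 2-fold higher and 13 lower in C57BL/6 glia-like cells, where 20.6% of all genes were lower, and 2 were higher and 9 lower in CAST/Ei glia-like cells, near the 23.3% of all genes. In fibroblast-like cells 0 were higher and 17 lower in C57BL/6, against 25.3% and 19.9% of all genes. In CAST/Ei 2 were higher and 16 lower, against 23.9% and 26.7%. Dync1i1 was 2.23 and 7.55 CPM in glia-like cells, and Kif5a was 11.2 and 67.9 CPM.

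**Figure D5:**
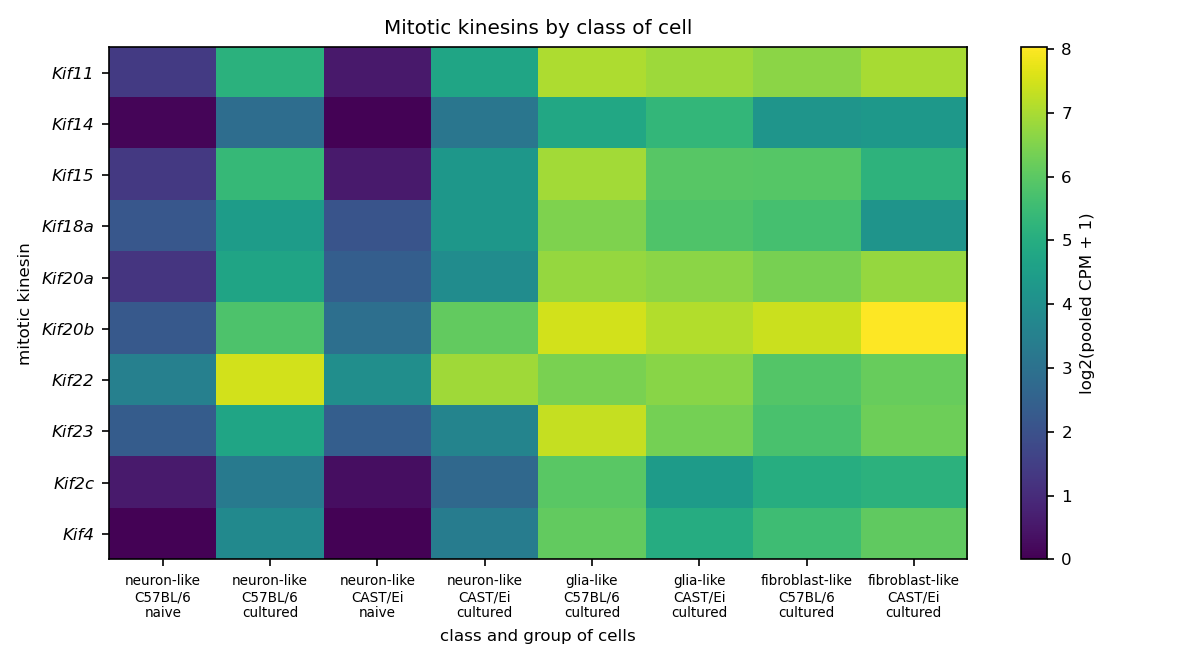
Colour gives log2(pooled CPM + 1) of the 10 mitotic kinesins (rows) in each class and group of cells (columns). Naive neuron-like cells are darkest, and Kif22 is brighter in cultured neuron-like cells (178 and 116.4 CPM) than in glia-like cells (84.4 and 95.6 CPM).

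The 7 remaining motors were mixed. Kifc2, a C-terminal kinesin of neurons, was 12.5 (11.7 to 13.4) and 1.10 CPM (0.675 to 1.71) in C57BL/6 and 11.5 (11.002 to 12.1) and 0.777 (0.573 to 1.03) in CAST/Ei, ratios of -2.68 and -2.82. Its naive cells ran from 0 to 115.9 CPM (median 5.48) and 0 to 212 (3.11), and no read was found in 29 of 36 and 54 of 60 cultured cells, whose highest were 51.9 and 135.6 CPM. Kif26b was 18.7 (17.7 to 19.8) and 1.27 CPM (0.806 to 1.91), and 9.94 (9.46 to 10.4) and 3.19 (2.76 to 3.66), ratios of -3.12 and -1.39, with naive medians of 4.83 (0 to 91.5) and 3.74 (0 to 109.8) and cultured medians of 0 (0 to 17.3 and 0 to 62.996). Both genes were lower in both strains. Kifc3, another C-terminal kinesin, was higher, at 3.12 (2.71 to 3.57) and 7.46 CPM (6.25 to 8.83), and 3.12 (2.85 to 3.41) and 20.8 (19.7 to 21.98), ratios of 1.04 and 2.40. The Kifc3 cells had medians of 0 and 1.17 CPM in C57BL/6 and 0 and 0 in CAST/Ei with highest values of 63.5, 271, 56.5 and 440.0, so the CAST/Ei difference does not show in the medians. Dync2h1, the heavy chain of the dynein that works in cilia, was 35.4 (33.95 to 36.8) and 24.7 CPM (22.5 to 27.1), and 55.9 (54.7 to 57.04) and 15.1 (14.2 to 16.1), ratios of -0.50 and -1.82, with cells from 0 to 236 CPM (median 18.9) and 0 to 121.1 (16.6), and from 0 to 337 (35.96) and 0 to 152.2 (4.65). Its CAST/Ei ratio alone passed 2-fold. Its partner Dync2li1 was 15.9 (14.9 to 16.8) and 9.39 CPM (8.03 to 10.9), and 25.8 (25.04 to 26.6) and 16.6 (15.6 to 17.7), ratios of -0.70 and -0.61, with cells from 0 to 58.6 CPM (median 11.9) and 0 to 43.6 (4.93), and from 0 to 124.8 (21.1) and 0 to 188 (11.7). Neither strain reached 2-fold for Dync2li1. Kif2a, which takes microtubules apart at their ends and limits axon branches, was 616 (609.7 to 622) and 702 CPM (689 to 714) in C57BL/6 and 585 (581 to 588) and 719 (712 to 725) in CAST/Ei, with cells from 16.7 to 1405 CPM (median 595) and 0 to 2419 (653), and from 21.3 to 1544 (543) and 0 to 3058 (583). Its ratios were 0.19 and 0.30, and it shares 19.2% of its exon bases with Dimt1 on the other strand.

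Between strains, few motors differed. In naive neuron-like cells, CAST/Ei against C57BL/6, 3 of 34 transport motors were at least 2-fold higher (Kif5c at 1.23, Dync1li1 at 1.11 and Dynlt1f at 1.30) and 1 was lower (Kif1b at -1.02), where 8.3% of all genes were higher and 6.43% lower. Kif20a (1.16) and Kif24 (1.02) were the other 2. Kif5c no longer reached 2-fold when the 32 C57BL/6 naive cells of cluster 8 were added. Ward clustering joined 31 C57BL/6 and 27 CAST/Ei naive cells in a single neuron-like cluster. Its leading genes include Hcrtr2 and Cckar of cluster 8 and Cdh9 and Th of cluster 11. Cluster 11, with 28 CAST/Ei cells and Kif5c at 733 CPM, was kept while cluster 8 was left out. The naive groups may thus differ in neuron types as well as strain, which was not tested. In cultured cells, Kif5b was higher in CAST/Ei (1.17) and Kif1c (-1.80) and Klc4 (-1.86) lower, which makes 1 and 2 of 34 against 21.3% and 14.8% of all genes, and of the mitotic kinesins 0 were higher and 2 lower, Kif15 (-1.10) and Kif23 (-1.08). Kifc3 was higher (1.37). None of these differences held in all 13 settings. Between cultured strains the sign itself changed in at least 1 setting for some. Kif1c reached 1.32, Klc4 0.24 and Kif23 0.92, and Kifc3 fell to -0.93. CAST/Ei reads were placed on a C57BL/6 genome, and the part of sequence variants in strain differences was not tested.

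Genes that work with the motors gave the setting. Of 31 adaptors and regulators, 7 were at least 2-fold higher and 8 lower in cultured C57BL/6 cells, close to the 21% and 23% of all genes. In CAST/Ei 6 were higher, near the 22.8% of all genes, and 4 lower, below the 23% of all genes. The medians of the 31 were -0.17 and 0.03. Among those with at least 10 CPM in a group, the 3 with the most extreme mean ratio were Fez1, Trak2 and Hook3. Fez1, a kinesin-1 adaptor, had -3.23 and -2.57, and Trak2, which joins motors to mitochondria, had 2.91 and 1.23. Hook3, a dynein activator, had 1.5999 and 1.795. Hook1, which reached at most 8.22 CPM, had -1.66 and -2.54. The dynactin proteins Actr1a, Actr1b and Actr10, the first forming its filament and the last its pointed end, were picked after their values were seen, and had ratios of -0.63, -2.13 and -1.60 in C57BL/6 cells, and of -0.53, -0.75 and -0.89 in those of CAST/Ei. The 24 mitotic genes that are no motors went the way of the mitotic kinesins: 23 were at least 2-fold higher in C57BL/6 and all 24 in CAST/Ei, with Top2a at 7.87 and 8.03, Cdk1 at 7.02 and 7.43 and Cenpf at 7.06 and 6.51.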

How the data were processed

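The deposited file is a single table of raw read counts, genes by cells, made without molecular identifiers. Per the submitters' processing notes, Bowtie2, SAMtools and mm10 were used; for the counter, its strand setting and the filters the sources used here give nothing. Each of the 516 columns was matched to its sample by title, and 0 columns were left unused. The members and lists were chosen with earlier results of these data known.

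Cells were clustered (scanpy 1.11.5, leidenalg 0.10.2) on log2(CPM + 1) without motor and mitotic genes, using 2000 variable genes, 20 components, 15 neighbours and resolution 1, which gave 15 clusters. A cluster took the name of the highest marker list of at least 3 genes unless its 10 leading genes held more markers of another class. Reads were summed per group and class, and ratios used a pseudocount of 1 CPM. A self-test on simulated counts was run first. Exon lengths came from GENCODE vM21 (GRCm38). Intervals cover counting error at 95%, and reads are not independent molecules. Where the naive or cultured group had at most 3 reads of a motor, the ratio of CPM was given with an exact binomial interval. Cells under 200000 reads (42) were left out of detection only. Members were named in full where, within a role, they were among the 5 largest mean ratios with at least 10 CPM or had the most reads. Other lists gave their 3 largest mean ratios with at least 10 CPM in a group. No doublet caller was run. Alternatives covered pseudocount, filter, weighting, scaling, classing, doublets and depth.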

Additional observations from a re-analysis of the deposited data

Results flagged for a closer look

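Of the 51 motors, 2 went in opposite directions in the strains by at least 1.5-fold each, and the difference was not tested because each group is 1 sample. Dynlt1f, a dynein light chain with near-identical copies, had log2 ratios of cultured over naive of 0.67 in C57BL/6 and -1.33 in CAST/Ei, a difference of -1.998, with 2.66 and 4.81 CPM in C57BL/6 and 7.99 and 2.57 CPM in CAST/Ei. Kif24, a kinesin of the centriole, had ratios of 0.69 and -0.80, a difference of -1.49, with 2.84 and 5.19 CPM in C57BL/6 and 6.78 and 3.48 CPM in CAST/Ei. Most cells of every group held no read of Kif24, and the highest cell was 53.3 and 57.5 CPM in C57BL/6 and 133.005 and 54.4 CPM in CAST/Ei.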

How the results depend on the processing

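No paired analysis was possible because the replicate numbers only name cells and the results come from no test. Of the motors past 2-fold, 9 of 23 in C57BL/6 and 10 of 25 in CAST/Ei (cultured against naive) stayed so under all 13 settings, and 0 of 6 in each strain comparison. Clusters made with all genes gave the same cells, and adding cluster 8 touched C57BL/6 naive cells alone, so not every setting could move a value. Leaving out a replicate was not possible, since each group is 1 sample. The cause was not tested for any value below, which are counts of transport or mitotic motors past 2-fold.

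In C57BL/6 culture, lower transport motors (7) numbered 4 with mean CPM of cells or thinned cells, 16 with all cells and 12 without the highest glial markers, and higher ones (3) then numbered 5; higher mitotic motors (10) numbered 5 and lower ones (0) 1 in that setting. In CAST/Ei culture, a pseudocount of 10 CPM gave 6 lower transport (11) and 5 higher mitotic motors (10), and 1 higher transport motor (0) appeared with mean CPM, Ward clusters, all cells or fewer glial markers. For cultured CAST/Ei against C57BL/6, higher transport motors (1) numbered 0 with mean CPM, median-of-ratios scaling or thinning and 6 with all cells or without the highest glial markers. Lower ones (2) numbered 0 with the larger pseudocount, 5 with median-of-ratios scaling and 8 without the highest glial markers. Lower mitotic motors (2) numbered 0 with the larger pseudocount, mean CPM, thinning or fewer glial markers and 1 with Ward clusters, and higher ones (0) numbered 4 with fewer glial markers. For naive cells, classing cells singly or not at all gave 1 higher (3) and 0 lower (1) transport motors. Median-of-ratios scaling moved the median of all genes in C57BL/6 culture from -0.12 to -0.01, and leaving out the highest glial markers moved it to -0.76. Of all 11251 genes, 2122 were higher and 4937 lower in C57BL/6 culture without the highest glial markers, and 2583 and 2311 with all cells. Between cultured strains 4292 were higher and 2201 lower without the highest glial markers. These numbered 1758 and 1341 with all cells, and 1929 and 2093 with median-of-ratios scaling.

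Chosen after seeing the data, cultured cells of cluster 3 alone gave 3 higher transport motors in CAST/Ei culture, where 1817 of all 11251 genes were higher. Between cultured strains they gave 0 higher transport and 1 lower mitotic motors, where 1237 of all genes were higher and 939 lower. Cluster 5 alone gave 7 higher and 12 lower transport and 5 higher and 1 lower mitotic motors in C57BL/6. Of all genes 2321 were then higher and 5846 lower. In CAST/Ei cluster 5 gave 1 higher transport motor, where 2860 of all genes were higher. Between cultured strains it gave 8 higher and 10 lower transport and 4 higher mitotic motors. Of all genes 4888 were higher and 2186 lower there.

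Reversed in C57BL/6 without the highest glial markers were Kif1c (-0.73), Kif18a (-1.04), Kif20b (-0.20) and Kif23 (-0.52, and -0.36 in CAST/Ei), and with cluster 5 alone Kif11 (-0.85), Kif20b (-1.03) and Kif23 (-0.88, and -0.0042 in CAST/Ei). The median of all genes was -0.76 in C57BL/6 and -0.13 in CAST/Ei without the highest glial markers. With cluster 5 alone it was -1.14 and -0.15. Kif11 was detected in 10% of C57BL/6 cultured cells with fewer glial markers and, at 1 read, in 53.7% of CAST/Ei ones. Kif22 was detected in 71.1% of all C57BL/6 cultured cells, in 70% of 10 with fewer glial markers and, at 1 read, in 92.6% of CAST/Ei ones.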
